A study of Rattus norvegicus with 6 samples.

Results

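The mitochondrial ribosomal protein genes are the nuclear genes whose products build the ribosome of the mitochondrion. They were taken as every row of the deposited gene tables whose symbol is Mrpl or Mrps followed by a number, with or without a letter after it. This gave 72 of 30498 rows, with 71 different symbols on 18 chromosomes, since Mrpl42 names 2 rows. Polyadenylated RNA was measured in whole brains of newborn pups of the rat, Rattus norvegicus. The CR group (3 libraries) had mothers under caloric restriction, a model of fetal growth restriction, and was set against a control group (3 libraries). Pups of both groups were born by Caesarean and their brains removed straight away. The labels name no strain, sex or litter and do not tie the libraries to separate animals, so each p-value rests on variation among libraries that may be technical.

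The mitochondrial ribosome translates the few messages of mitochondrial DNA, which encode subunits of the respiratory chain and of ATP synthase. Its large subunit (Mrpl genes) joins amino acids, and its small subunit (Mrps genes) reads the message. Many of its proteins have bacterial counterparts, and others are found only in mitochondria. Its RNAs come from mitochondrial DNA, whereas every protein is encoded in the nucleus and imported. Some names mislead. Mrps30 and Mrps18a encode proteins of the large subunit, and Mrps36 is now known as Kgd4, a subunit of the 2-oxoglutarate dehydrogenase complex of the citric acid cycle. Mrps21l, a copy of Mrps21 by its name, was likewise put in no subunit group.

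Reads assigned to genes numbered between 22161522 and 25734737 per library in CR and between 14030961 and 25345354 in control. Levels are in FPKM, which scales the fragments of a gene by its exon length and by the depth of the library. The libraries of the groups differed in markers of brain regions. The summed level of 20 markers of regions behind the telencephalon (thalamus and hypothalamus, midbrain, hindbrain, cerebellum) lay between 140.33 and 187.50 FPKM in CR libraries and between 6.63 and 18.43 FPKM in control libraries, where Pou4f2 and Hoxb5 had no read at all. In CR replicates 1 to 3, Pou4f2 had 283, 374 and 279 reads, but Hoxb5 had 19, 16 and 566. Hoxb5 was thus high only in CR replicate 3, and so was Hoxc4, with 81, 80 and 628 reads. The summed level of CR replicate 3, 176.33 FPKM, lay between those of the other CR libraries and does not show this. Low levels in control of genes of the regions behind the telencephalon stand against the label of whole brain, which all libraries carry. The summed level of 10 markers of the dorsal telencephalon lay between 198.99 and 313.69 FPKM in CR libraries and between 528.42 and 693.47 FPKM in control libraries. The part of these differences in the results that follow was not tested. In bulk tissue, fewer cells of a type and less RNA per cell cannot be told apart.

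Most of the genes were well expressed. Among the 70 rows with a mean of at least 0.5 FPKM, which were tested, 53 had a mean level between 10 and 50 FPKM, 12 were at 50 FPKM or more and 5 were under 10 FPKM. Mrps21, the counterpart of bacterial ribosomal protein S21, had the highest level, with 176, 174 and 170 FPKM in CR and 178, 192 and 170 FPKM in control. Mrps33 (mean 143 FPKM over all libraries) and Mrpl27 (112 FPKM) came next. The lowest members were the second Mrpl42 row, on chromosome 13, with 3, 4 and 4 reads in CR and 7, 1 and 3 in control, and Mrps17, with 0.540, 0.392 and 0.564 FPKM in CR and 0.494, 0.448 and 0.376 FPKM in control. These were the 2 rows below the minimum, and no difference was tested for them. Mrps17 encodes a core protein of the small subunit, and its row shared 764 of 1587 exon bases with an unnamed row on the same strand, so its low level is uncertain. Levels varied little between libraries of a group. The median coefficient of variation of the tested members was 3.72% in CR and 6.05% in control, against 6.87% in CR and 9.55% in control over all genes tested. The median level was 24.7 FPKM over the 72 members and 7.57 FPKM over all genes tested, and genes of a like level were not compared.

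**Figure D1:**
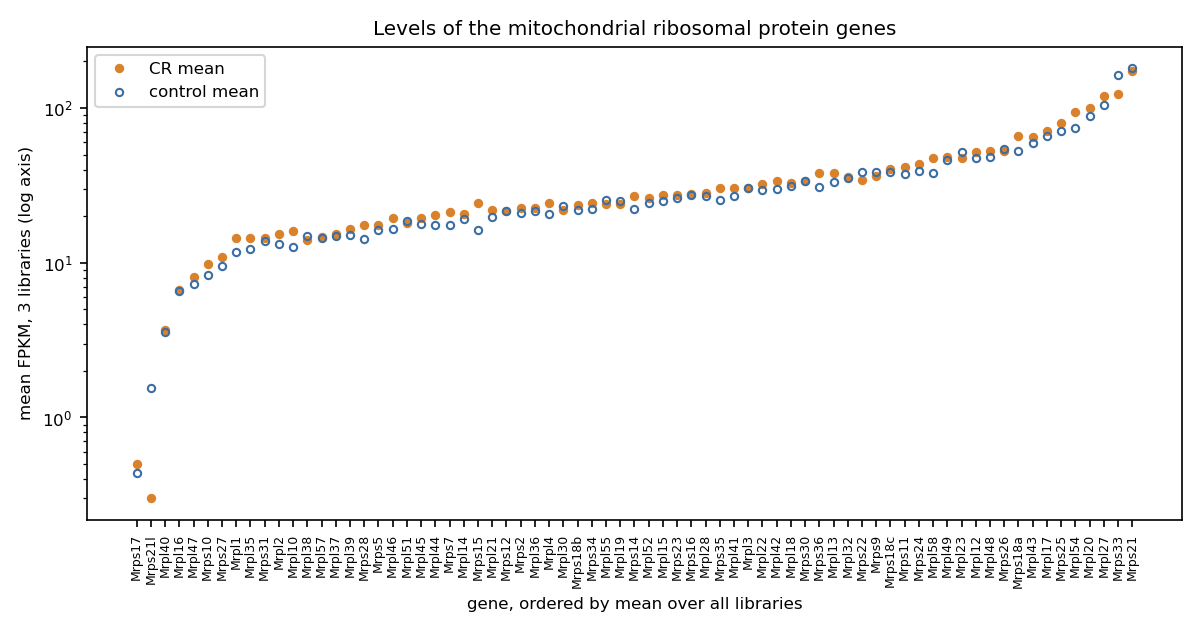
Mean level in FPKM (log axis) of each mitochondrial ribosomal protein gene, ordered by its mean over all libraries, with filled points for the mean of 3 CR libraries and open points for the mean of 3 control libraries. The second Mrpl42 row is left out; most genes lie between 10 and 50 FPKM, Mrps21 is highest, and at Mrps33 the CR mean (124 FPKM) lies below the control mean (163 FPKM).

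The comparison of CR with control asked whether the genes of the mitochondrial ribosome differed in the growth-restricted brain at birth. Of the 70 tested members, 18 were higher in CR, 3 were lower and 49 did not pass the test (limma on log2(FPKM + 1), adjusted p under 0.05 over all 15247 genes). The differences were small. Log2 fold changes, always CR minus control on the log2(FPKM + 1) scale, ran from -0.99 for Mrps21l to 0.56 for Mrps15, with a median of 0.12, against a median of 0.01 over all genes tested. In absolute terms the members' median log2 fold change was 0.13, below the 0.20 of all genes, and 2 of the 70 exceeded 0.5 in size, against 2078 (13.6%) of all genes. These sizes were not compared among genes of a like level. The background of calls was high. Over all genes tested, 33.9% passed the test in either direction, 17.7% as higher and 16.2% as lower in CR, whereas 25.7% of the members were higher and 4.29% lower. The log2 fold change was positive in 56 members (80%), against 51.4% of all genes.

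Members were also counted by whether the groups overlapped. In 30 of 70 members every CR library lay above every control library, against 26.1% of all genes, and in 4 members every CR library lay below, against 24.3% of all genes. The other 36 had groups that overlapped. Members with a bacterial counterpart and those found only in mitochondria had close medians in the large subunit, at 0.12 for 25 genes and 0.12 for 19 genes. In the small subunit the medians were 0.13 for 14 tested genes with a bacterial counterpart and 0.09 for 10 found only in mitochondria. In this split Mrpl58, and Mrps18a and Mrps18b although related to bacterial S18, were counted among those found only in mitochondria.

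**Figure D2:**
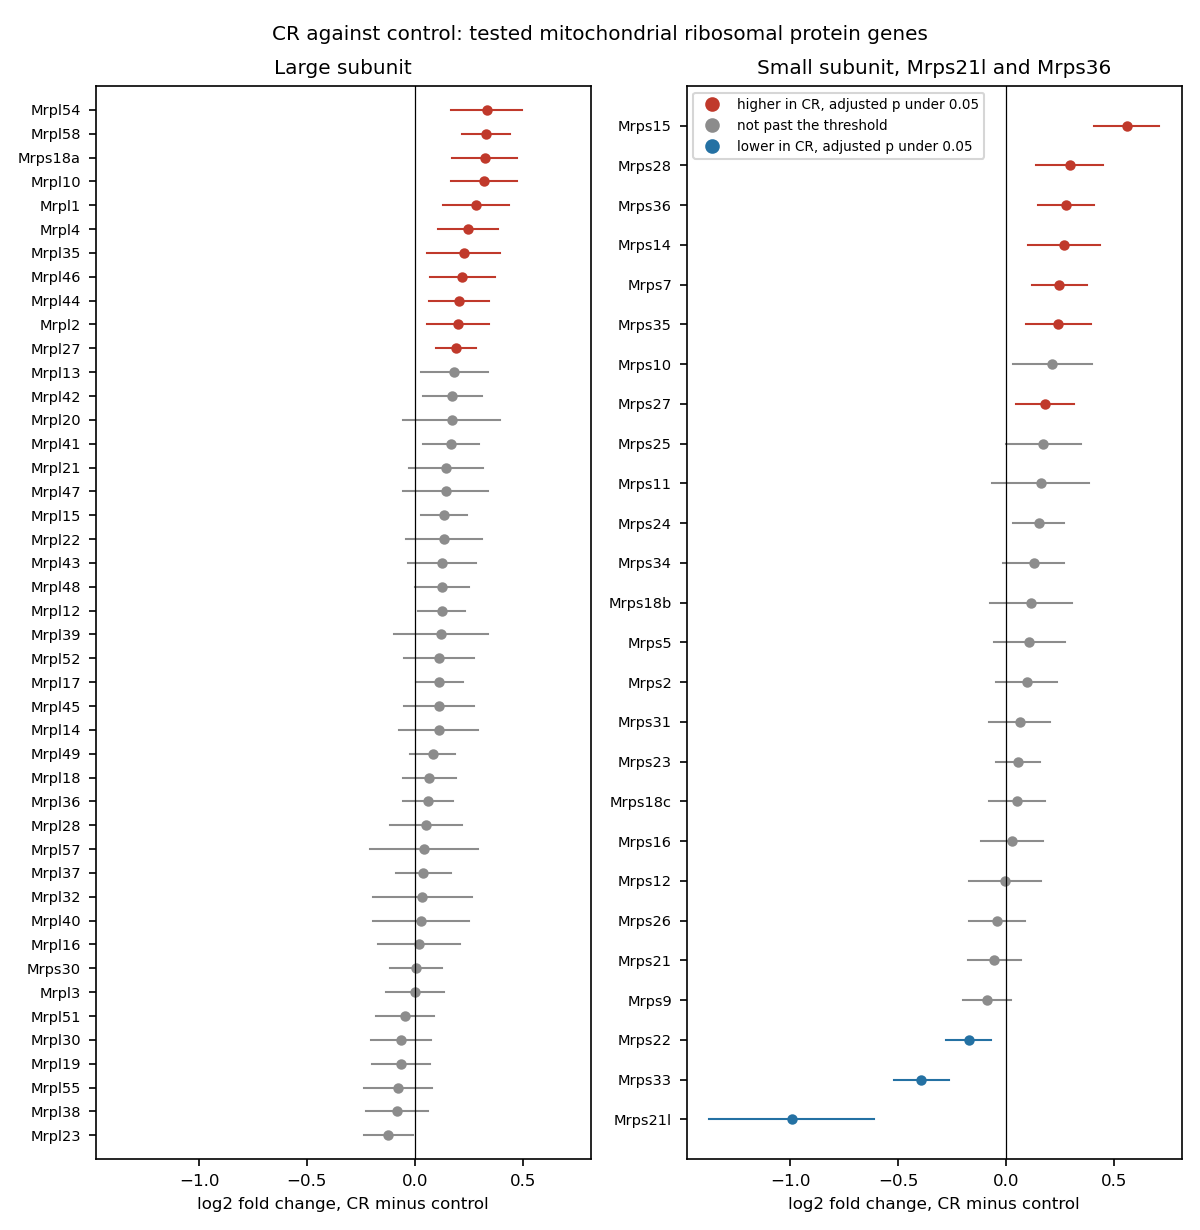
Log2 fold change (CR minus control) of each tested gene with its 95% confidence interval from limma, the large subunit on the left and the small subunit with Mrps21l and Mrps36 on the right. Red points passed the test as higher in CR (18 genes), blue points as lower (3 genes) and grey points did not pass (49 genes).

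In the large subunit 11 of 44 tested genes (25%) were higher in CR and none was lower, against 17.7% and 16.2% of all genes. Log2 fold changes were above 0 in 37 of the 44, and 33 genes did not pass the test. At an unadjusted p under 0.05, limma gave 17 higher and 1 lower, against 3571 and 3301 of all 15247 genes. With limma-voom on recovered reads 9 were higher and 0 lower, against 20.2% and 17.7% of all genes. Mrpl54, a protein of the large subunit found only in mitochondria, had 93.6, 97.1 and 91.3 FPKM in CR against 82.4, 73.3 and 68.1 FPKM in control. The groups did not overlap, and the log2 fold change was 0.33 (SE 0.071, limma adjusted p = 0.0103). Mrpl58 (ENSRNOG00000032780, chromosome 10, bases 100646216 to 100652871 on mRatBN7.2) encodes a peptidyl-tRNA hydrolase built into the ribosome, which frees stalled chains. It had 47.5, 49.5 and 46.4 FPKM in CR against 38.6, 38.4 and 36.5 FPKM in control, again without overlap. Its log2 fold change was 0.33 (SE 0.047, limma adjusted p = 0.00249). Mrps18a, whose product sits in the large subunit despite its name, had 67.4, 66.0 and 65.2 FPKM in CR against 56.1, 54.7 and 47.7 FPKM in control (log2 fold change 0.32, SE 0.065, limma adjusted p = 0.00833). Its row shared 406 of 871 exon bases with Rsph9 on the opposite strand, a radial spoke gene of motile cilia that was itself higher in CR (14.8 ± 1.49 FPKM in CR and 10.4 ± 1.38 in control, SD, n = 3 each, limma adjusted p = 0.0121). No source used here says whether counting took strand into account, so the value of Mrps18a is uncertain.

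Among large subunit proteins with a bacterial counterpart, the leading genes were Mrpl10, Mrpl1 and Mrpl4. Mrpl10, the base of the flexible stalk that meets translation factors, had 16.2, 16.2 and 15.9 FPKM in CR against 13.5, 13.0 and 11.7 FPKM in control. Every CR library was above every control library, with a log2 fold change of 0.32 (SE 0.065, limma adjusted p = 0.00903). Of its 1780 exon bases, 288 were shared with Lrrc46 on the opposite strand. Mrpl1, the protein of the other stalk, had 14.3, 15.2 and 13.8 FPKM in CR against 11.2, 12.5 and 11.4 FPKM in control (log2 fold change 0.28, SE 0.066, limma adjusted p = 0.0151). Mrpl4, which lines the exit tunnel in bacteria, had 24.3, 24.2 and 24.99 FPKM in CR against 19.7, 22.2 and 19.7 FPKM in control (log2 fold change 0.25, SE 0.060, limma adjusted p = 0.0177). Neither gene's groups overlapped. The call for Mrpl1 was lost without CR replicate 2 (limma adjusted p = 0.0628), and that for Mrpl4 without CR replicate 2 (0.0526), CR replicate 3 (0.0687) or control replicate 1 (0.0511), each an adjusted p from limma.

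Mrpl27, which reaches toward the catalytic centre in bacteria, was the most abundant gene that was higher in CR. It had 119, 118 and 122 FPKM in CR against 106, 106 and 102 FPKM in control, with no overlap, and its log2 fold change was 0.19 (SE 0.040, limma adjusted p = 0.0106). Mrpl12, which binds Mrpl10 in the stalk, had 50.8, 51.9 and 54.1 FPKM in CR against 49.5, 46.3 and 47.8 FPKM in control. Its CR libraries were all above its control libraries, yet the test was not passed (log2 fold change 0.12, SE 0.047, limma adjusted p = 0.0784). Mrps30, a large subunit protein found only in mitochondria, had 34.4, 32.8 and 33.7 FPKM in CR against 35.0, 33.9 and 31.8 FPKM in control. Its groups overlapped, and the 95% interval of its log2 fold change ran from -0.11 to 0.12. Mrpl42 on chromosome 7 had 34.1, 33.0 and 34.7 FPKM in CR against 32.1, 28.2 and 29.6 FPKM in control (log2 fold change 0.17, limma adjusted p = 0.0518). That value lies close to the threshold, and the test was passed without control replicate 1 (limma adjusted p = 0.0255) and with a minimum mean of 2 FPKM (0.0448).

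**Figure D3:**
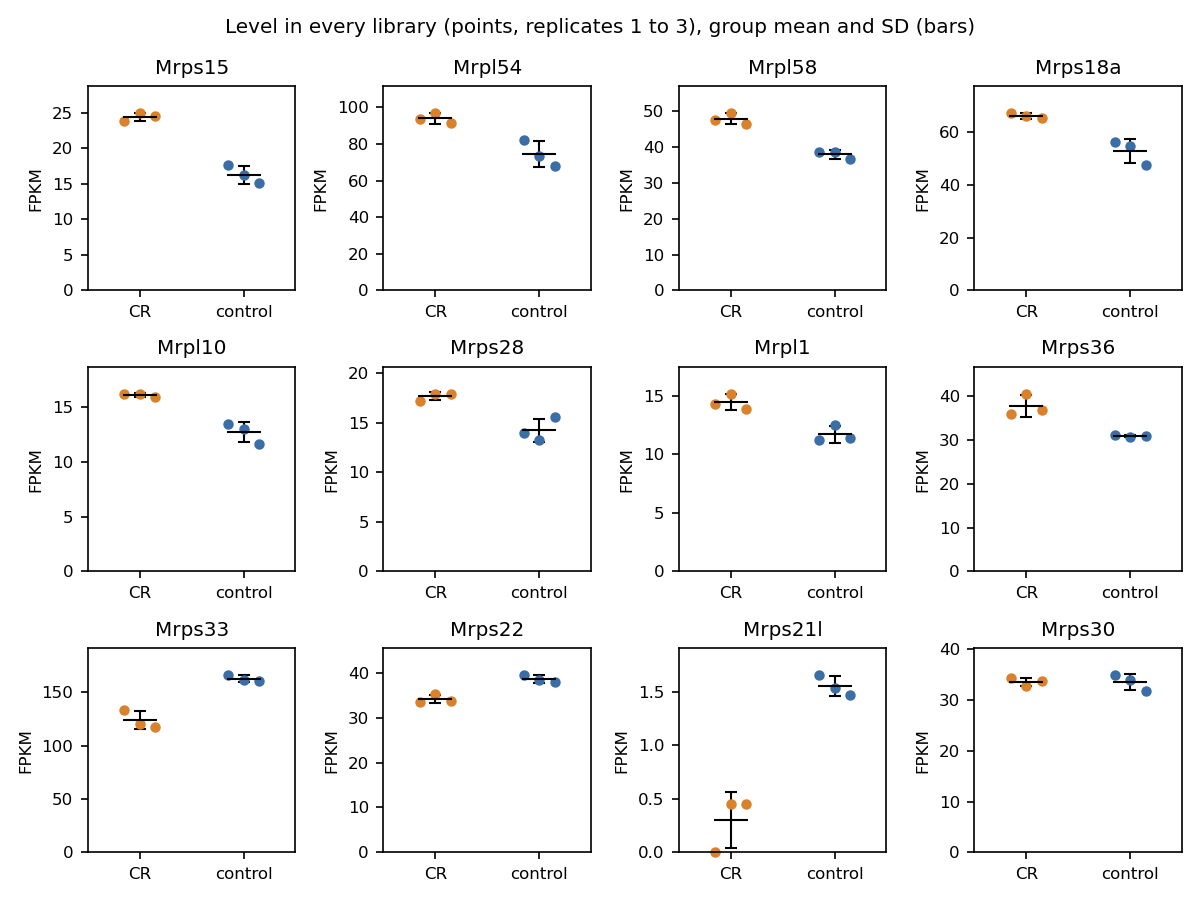
FPKM of 12 genes in every library (points, replicates 1 to 3 from left to right within a group), CR in orange and control in blue, with the mean and the SD over 3 libraries as bars. In all but Mrps30 the CR and control points are separate; CR lies above control in the first 8 panels and below it in Mrps33, Mrps22 and Mrps21l.

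In the small subunit 6 of 24 tested genes were higher in CR (25%, against 17.7% of all genes). Another 2 were lower (8.33%, against 16.2%) and 16 did not pass. Mrps15, the counterpart of the rRNA-binding bacterial protein S15, had the largest increase of all members. It lies on chromosome 5 (ENSRNOG00000008279, bases 138321593 to 138332205 on mRatBN7.2) and had 23.9, 25.02 and 24.5 FPKM in CR against 17.6, 16.2 and 15.1 FPKM in control. The ratio of the group means was 1.501, the groups did not overlap, and the log2 fold change was 0.56 (SE 0.065, limma adjusted p = 0.00131). Mrps28, the counterpart of bacterial S1, had 17.2, 17.9 and 17.9 FPKM in CR against 14.0, 13.3 and 15.5 FPKM in control (log2 fold change 0.29, SE 0.067, limma adjusted p = 0.0136). Mrps14, a core protein of the head of the small subunit, had 26.1, 28.6 and 26.7 FPKM in CR against 23.1, 23.9 and 20.3 FPKM in control (log2 fold change 0.27, SE 0.072, limma adjusted p = 0.0244). In both genes every CR library was above every control library. Without CR replicate 2 or CR replicate 3 the test was missed for Mrps28 (limma adjusted p = 0.0529 and 0.0530) and for Mrps14 (0.0905 and 0.0648).

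Of the 10 small subunit proteins found only in mitochondria, 2 were higher and 2 lower in CR (20% each, against 17.7% and 16.2% of all genes). Mrps35 had 28.3, 31.5 and 31.6 FPKM in CR against 26.3, 26.6 and 23.9 FPKM in control (log2 fold change 0.24, SE 0.065, limma adjusted p = 0.0246). Mrps27, a pentatricopeptide repeat protein, had 11.0, 11.2 and 10.6 FPKM in CR against 9.69, 9.39 and 9.51 FPKM in control (log2 fold change 0.18, SE 0.058, limma adjusted p = 0.0454). Groups did not overlap in either gene. The call for Mrps35 was lost without CR replicate 2, CR replicate 3 or control replicate 3 (limma adjusted p = 0.0901, 0.0911 and 0.0517), and that for Mrps27 when any 1 of the 6 libraries was left out (limma adjusted p between 0.0629 and 0.145).

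Mrps33 moved the other way and had the largest decrease among well-expressed members. This small subunit gene, the most abundant but one of all members, lies on chromosome 4 (ENSRNOG00000026528, bases 68596729 to 68605428 on mRatBN7.2). It had 133, 121 and 118 FPKM in CR against 167, 161 and 161 FPKM in control, so every CR library was below every control library. Its log2 fold change was -0.39 (SE 0.055, limma adjusted p = 0.00227), and the ratio of the group means was 0.761. Mrps22, a small subunit gene whose human counterpart is mutated in a mitochondrial disease, had 33.4, 35.2 and 33.8 FPKM in CR against 39.6, 38.3 and 37.96 FPKM in control. The groups did not overlap, and the log2 fold change was -0.17 (SE 0.045, limma adjusted p = 0.0221). The call for Mrps22 was lost without control replicate 1 (limma adjusted p = 0.0626), control replicate 2 (0.0503), CR replicate 1 (0.0723) or CR replicate 3 (0.0823). It was also lost with a replicate block (limma adjusted p = 0.0559), without limma's variance trend (0.0587) and with limma-voom on recovered reads (0.0612). Of the exon bases of Mrps22, 16.7% were shared with a row on the opposite strand.

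Mrps21l and Mrps36 belong to neither subunit group. Mrps21l had 0, 3 and 3 reads in CR, 0, 0.452 and 0.453 FPKM, against 6, 10 and 7 reads in control, 1.66, 1.53 and 1.47 FPKM. CR lay below control (log2 fold change -0.99, SE 0.16, limma adjusted p = 0.00415), but with at most 10 reads in a library, and reads of Mrps21 and of a copy may not have been told apart. Mrps21 itself had a log2 fold change of -0.05 with overlapping groups. Mrps36 had 35.9, 40.6 and 36.9 FPKM in CR against 31.3, 30.7 and 31.0 FPKM in control. Its groups did not overlap, and the log2 fold change was 0.28 (SE 0.056, limma adjusted p = 0.00848).

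Several small subunit genes with well known roles did not pass the test. Mrps12, a protein of the decoding centre, had 21.9, 21.7 and 21.0 FPKM in CR against 22.5, 23.2 and 19.4 FPKM in control, and the 95% interval of its log2 fold change ran from -0.17 to 0.16. Mrps16, whose human counterpart is mutated in a mitochondrial disease, had 28.4, 27.8 and 27.0 FPKM in CR against 25.1, 29.1 and 27.5 FPKM in control (interval -0.12 to 0.17). Both had groups that overlapped. The 3 genes related to bacterial S18 had different calls. Mrps18a was higher in CR (above), while Mrps18b had 23.0, 23.2 and 24.6 FPKM in CR against 24.7, 20.7 and 20.0 FPKM in control (limma adjusted p = 0.313). Mrps18c had 42.8, 39.6 and 38.02 FPKM in CR against 40.1, 38.3 and 37.6 FPKM in control (limma adjusted p = 0.516). Groups overlapped in Mrps18b and Mrps18c, and Mrps18b passed without control replicate 1 (limma adjusted p = 0.0423). Whether the 3 differ from each other was not tested.

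The remaining 5 members that were higher in CR had log2 fold changes between 0.20 and 0.25 and groups that did not overlap. They were Mrpl2, Mrpl35, Mrpl44 and Mrpl46 of the large subunit and Mrps7 of the small subunit, named after their values were seen. Each of these calls was lost without at least 1 library, that of Mrps7 without CR replicate 2 (limma adjusted p = 0.0534), those of Mrpl2, Mrpl35, Mrpl44 and Mrpl46 without CR replicate 2 (0.0670, 0.110, 0.124 and 0.102) or CR replicate 3 (0.148, 0.108, 0.113 and 0.0532) and without several others. Of the 2152 exon bases of Mrps7, 1096 were shared with Gga3 on the opposite strand.

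Levels summed over a subunit separated the groups for the large subunit only. The 44 large subunit genes came to 1476.3, 1508.2 and 1483.7 FPKM in CR against 1396.9, 1373.0 and 1296.0 FPKM in control, and the groups did not overlap. The 25 small subunit genes came to 957.69, 946.50 and 938.13 FPKM in CR against 969.83, 960.23 and 908.24 FPKM in control, and the groups overlapped. Mrps33 and Mrps21 were the most abundant genes of the small subunit and had negative log2 fold changes, of which that of Mrps33 passed the test. Sums over all genes tested also separated the groups, with 427080, 426330 and 419010 FPKM in CR against 415530, 414820 and 411300 FPKM in control. The ratio of mean sums, CR over control, was 1.10 for the large subunit, 1.00 for the small subunit and 1.02 for all genes tested. The medians of the log2 fold changes were 0.12 in the large and 0.11 in the small subunit. All 72 rows together took 0.341%, 0.346% and 0.340% of the assigned reads in CR and 0.328%, 0.324% and 0.307% in control. No p-value is given for these sums, since the members were chosen with results of these data known.

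**Figure D4:**
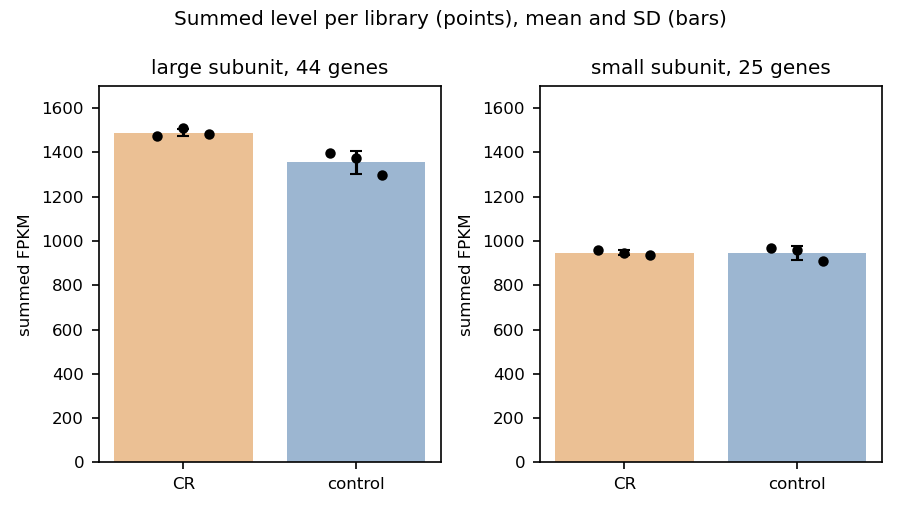
Summed FPKM of the 44 large subunit genes (left) and the 25 small subunit genes (right) in each library (points), with the mean over 3 libraries as a bar and its SD. Large subunit sums lie between 1476.3 and 1508.2 in CR and between 1296.0 and 1396.9 in control, and small subunit sums overlap.

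The median kept its sign under other settings, while the count of calls varied. Among 16 other settings, the median log2 fold change stayed between 0.08 and 0.15, and 51 to 57 members had positive values. The count of members higher in CR fell to 10 with median-ratio size factors (14.3% of members, against 15.98% of all genes), to 7 without CR replicate 2 (10%, against 11.0%) and to 9 without CR replicate 3 (12.9%, against 11.6%). It was 13 without control replicate 3 (18.6%, against 17.7%) and 15 with limma-voom on recovered reads (21.4%, against 20.2%). Under these settings the share of members higher in CR was close to that of all genes, and it was the smaller share with median-ratio size factors and without CR replicate 2. Of the 21 members called, 9 passed under every setting in which they were tested, namely Mrpl10, Mrpl27, Mrpl54, Mrpl58, Mrps15, Mrps18a and Mrps36 as higher and Mrps33 and Mrps21l as lower in CR. Mrps21l was too low to be tested with a minimum mean of 2 FPKM. Calls lost with median-ratio size factors included those of Mrpl4 (limma adjusted p = 0.0581), Mrps14 (0.0501), Mrps35 (0.0503) and Mrps27 (0.0834).

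**Figure D5:**
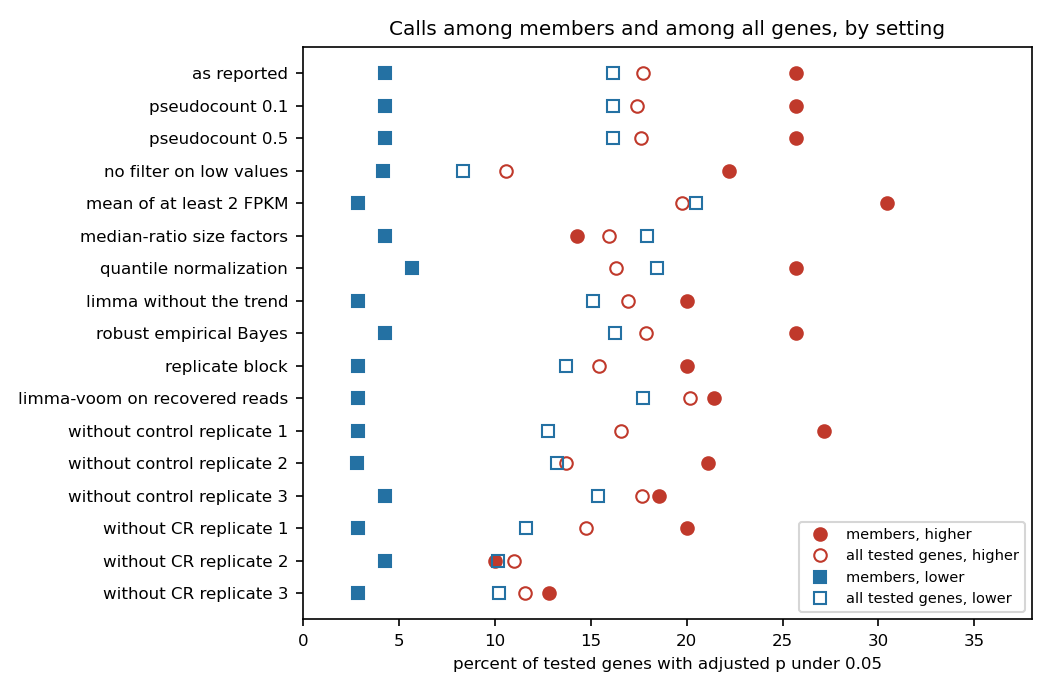
Percent of tested mitochondrial ribosomal protein genes (filled) and of all tested genes (open) that passed the test as higher (red circles) or lower (blue squares) in CR, as reported and under 16 other settings. The share of members called higher lies between 10% and 30.4% and is close to that of all genes with median-ratio size factors, with limma-voom and without CR replicate 2, CR replicate 3 or control replicate 3; the share called lower stays under that of all genes throughout.

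Promoters of these genes are known to carry sites for nuclear respiratory factor 1 (NRF1), for ETS proteins such as GABPA and for YY1, regulators of nuclear genes for mitochondria. Windows of 300 bases, 250 before and 50 after each annotated start, were read from RefSeq (rat assembly GRCr8) and could be matched for 56 of 71 symbols, 58 windows in all. Exact matches were searched on both strands. The NRF1 motif, a run of 10 letters that reads the same on both strands and stands in capitals in the Mrps18b promoter printed next, was in 6.90% of these windows, against 0.852% of all 33469 windows of the table. The ETS letters CCGGAAGT were in 12.1%, against 3.81% of all windows, and the YY1 letters AAGATGGC in 22.4%, against 3.17%. Matches to different motifs did not overlap in these windows. In 10 of the 13 genes with the YY1 letters they lay on the gene's strand just after the start, with their first base at position 1 to 31 of the transcript, and the letters include ATG. Any of the 3 was present in 6 of 15 matched genes that were higher in CR, in 14 of 39 that did not pass and in 0 of 1 that was lower. A match describes the letters and is not a binding site.

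To show how differently such promoters read whatever the call, 6 are printed from 120 bases before to 30 bases after the start, 5′ to 3′ on the gene's strand, with a motif in capitals. Mrps15 (chr5:143606021-143606170, plus strand), with the largest increase, and Mrps33 (chr4:69566909-69567058, minus strand), the abundant gene that was lower in CR, held none of the 3 motifs. Mrps18a (chr9:22367351-22367500, minus strand, higher in CR) and Mrps30 (chr2:52195875-52196024, minus strand, not past the test) held the YY1 letters. Mrpl27 (chr10:80092225-80092374, plus strand, higher in CR) held the ETS letters, and Mrps18b (chr20:2842886-2843035, plus strand, not past the test) held the NRF1 motif and, at bases 29 to 36 of the transcript and so past the end of the printed stretch, the YY1 letters.
Mrps15: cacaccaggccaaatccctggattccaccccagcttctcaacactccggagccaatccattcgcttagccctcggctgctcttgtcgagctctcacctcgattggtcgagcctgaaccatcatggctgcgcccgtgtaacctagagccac
Mrps33: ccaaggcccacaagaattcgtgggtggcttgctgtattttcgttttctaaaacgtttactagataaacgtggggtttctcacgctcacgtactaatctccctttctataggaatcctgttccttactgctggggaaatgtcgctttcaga
Mrps18a: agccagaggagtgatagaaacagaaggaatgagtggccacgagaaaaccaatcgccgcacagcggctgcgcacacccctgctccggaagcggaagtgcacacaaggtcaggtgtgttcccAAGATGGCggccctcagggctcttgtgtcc
Mrps30: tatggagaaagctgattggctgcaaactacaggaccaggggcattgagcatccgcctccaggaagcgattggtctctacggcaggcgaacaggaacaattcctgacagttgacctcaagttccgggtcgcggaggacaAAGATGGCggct
Mrpl27: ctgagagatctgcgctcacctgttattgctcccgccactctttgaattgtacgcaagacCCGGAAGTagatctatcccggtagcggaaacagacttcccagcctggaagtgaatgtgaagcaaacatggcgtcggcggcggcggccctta
Mrps18b: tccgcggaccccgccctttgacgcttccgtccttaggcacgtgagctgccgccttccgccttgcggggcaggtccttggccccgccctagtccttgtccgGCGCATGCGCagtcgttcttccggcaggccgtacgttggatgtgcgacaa
In Mrps18a the capitals begin at the first base of the transcript, and in Mrps30 at base 19. In Mrpl27 and Mrps18b they lie upstream, from 61 and from 20 bases before the start.

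Some of these genes start back to back with a neighbour. In 21 members another gene began within 1000 bases on the other strand, and in 19 of these pairs both genes were tested. The log2 fold changes had the same sign in 11 of the 19 pairs. Neither count was set beside one over all genes. The pairs described next are among those in which only the neighbour passed the test. Mrps12 and Sars2, the mitochondrial seryl-tRNA synthetase gene, start 206 bases apart. Mrps12 did not pass, whereas Sars2 was higher in CR (4.37 ± 0.593 FPKM in CR and 2.92 ± 0.240 in control, log2 fold change 0.45, limma adjusted p = 0.0169), a call lost without CR replicate 2 (0.0679) or CR replicate 3 (0.0641). Mrpl43, of the large subunit, starts 49 bases from Twnk, the helicase of mitochondrial DNA. Mrpl43 did not pass (log2 fold change 0.13), and Twnk was lower in CR (9.51 ± 0.359 FPKM in CR and 12.2 ± 0.676 in control, log2 fold change -0.33, limma adjusted p = 0.00848). Mrpl47 did not pass either, and Ndufb5, a gene of respiratory complex I that starts 160 bases away, was higher in CR (126 ± 3.79 FPKM in CR and 108.5 ± 1.02 in control, limma adjusted p = 0.00711). Whether partners differ from each other was not tested. Mrpl43, Mrpl47 and Ndufb5 fall outside the rule for named genes.

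Other genes of mitochondrial translation, from lists of the pathway, had medians close to 0. Shares over all genes, for the counts below, were 17.7% called higher and 16.2% lower. Of 5 mitoribosomal proteins with other names, none was higher and 1 was lower, with a median log2 fold change of -0.05. That gene was Dap3, a GTP-binding protein of the small subunit, with 14.1, 14.6 and 14.3 FPKM in CR against 16.8, 15.7 and 16.4 FPKM in control. Its groups did not overlap (log2 fold change -0.17, SE 0.053, limma adjusted p = 0.0384), and its call was lost without control replicate 1 or 3 or without any 1 CR library (limma adjusted p between 0.0602 and 0.115). Of 23 tested genes for ribosome assembly and rRNA modification, none was higher and 2 were lower (median 0.03). At an unadjusted p under 0.05, limma gave 0 of the 5 and 1 of the 23 as higher, and 2 of the 5 and 3 of the 23 as lower. With limma-voom, 0 in each were called higher, and 1 of the 5 and 2 of the 23 lower. The 2 assembly genes lower in the main fit were Mrm1, a methyltransferase of the large rRNA (3.89 ± 0.188 FPKM in CR and 5.56 ± 0.257 in control, limma adjusted p = 0.0060), and Noa1, an assembly GTPase (8.37 ± 0.325 FPKM in CR and 10.4 ± 0.352 in control, limma adjusted p = 0.0122). Without CR replicate 3 the call for Noa1 was lost (limma adjusted p = 0.0563).

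Translation factors and tRNA synthetases mostly did not pass. Calls as higher made up 5.88% of translation genes, 7.14% of synthetase genes and 10% of import genes, against 17.7% of all genes. Every CR library lay above every control library in 23.5% of translation genes, 21.4% of synthetase genes and 60% of import genes. Over all genes that share was 26.1%. Among import genes limma gave 5 higher and 0 lower at an unadjusted p under 0.05, against 3571 and 3301 of all 15247 genes. With limma-voom, 2 import genes were called higher and 0 lower, against 20.2% and 17.7% of all genes. Of 17 translation genes 1 was higher (median 0.01), Oxa1l, which inserts new proteins into the inner membrane (38.1 ± 1.08 FPKM in CR and 33.4 ± 1.34 in control, limma adjusted p = 0.0239). Its call was lost without CR replicate 2 (limma adjusted p = 0.0822), CR replicate 3 (0.0911) or control replicate 1 (0.0539), and with median-ratio size factors (0.0799). Of 14 tested mitochondrial tRNA synthetase genes, Sars2 alone was higher and 13 did not pass (median -0.02). Of 10 genes for protein import and chaperones, 1 was higher (median 0.09). This was Timm23, the import channel of the inner membrane (47.8 ± 2.07 FPKM in CR and 42.5 ± 1.19 in control, limma adjusted p = 0.0346). The call for Timm23 was lost when any 1 library was left out (limma adjusted p between 0.0511 and 0.122) and with median-ratio size factors (0.112).

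Genes for the upkeep and transcription of mitochondrial DNA had negative log2 fold changes in 9 of 10. None was higher and 3 were lower in CR, with a median log2 fold change of -0.21, and in 7 every CR library lay below every control library. Over all genes, 16.2% were called lower and 24.3% had every CR library below every control library. Mterf1, a termination factor, averaged 2.75 ± 0.175 FPKM in CR and 5.25 ± 1.05 in control (SD, n = 3 each), a log2 fold change of -0.72 (limma adjusted p = 0.00505). Tfam, which packages mitochondrial DNA and starts its transcription, averaged 31.6 ± 2.48 FPKM in CR and 36.9 ± 1.55 in control (log2 fold change -0.22, limma adjusted p = 0.0374). The call for Tfam was lost without control replicate 2 or 3 or CR replicate 1 or 3 (limma adjusted p between 0.0842 and 0.120). Twnk, described above, was the third. At an unadjusted p under 0.05, limma gave 0 higher and 6 lower, and limma-voom called 0 higher and 4 lower.

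Of 9 nuclear regulators of mitochondrial genes, 1 was higher (11.1%, against 17.7% of all genes) and 3 were lower in CR (33.3%, against 16.2%). Their median log2 fold change was -0.18. Ppargc1a, a coactivator of mitochondrial biogenesis, averaged 4.07 ± 0.329 FPKM in CR and 2.16 ± 0.300 in control (log2 fold change 0.68, limma adjusted p = 0.00325). Its relative Pprc1 averaged 4.95 ± 0.788 FPKM in CR and 7.30 ± 0.4996 in control (log2 fold change -0.49, limma adjusted p = 0.0121). Myc, a growth regulator, averaged 11.9 ± 1.31 FPKM in CR and 15.7 ± 1.55 in control (log2 fold change -0.37, limma adjusted p = 0.0219). Its call was lost without control replicate 1 or 2 or CR replicate 1 or 3 (limma adjusted p between 0.0630 and 0.0793). Yy1, the factor named for the promoter letters above, was the other lower gene (28.1 ± 1.41 FPKM in CR and 34.3 ± 1.53 in control, limma adjusted p = 0.00903). Nrf1 averaged 3.03 ± 0.246 FPKM in CR and 3.76 ± 0.442 in control, and Gabpa averaged 8.34 ± 0.188 FPKM in CR and 9.51 ± 0.315 in control. Neither passed (limma adjusted p = 0.111 and 0.0686), although in both every CR library lay below every control library. Both passed as lower with limma-voom on recovered reads (adjusted p = 0.0479 for Nrf1 and 0.0487 for Gabpa), Nrf1 also with quantile normalization (0.0427) and Gabpa with median-ratio size factors (0.0469). Yy1, Nrf1 and Gabpa were named after their values were seen.

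Markers of other cell types also moved with the groups. Of 6 astrocyte markers 5 were higher in CR (83.3%, against 17.7% of all genes). The summed level of the 6 lay between 135.89 and 162.61 FPKM in CR libraries and between 68.33 and 91.45 FPKM in control libraries. Of 8 markers of cycling cells 3 were lower (37.5%, against 16.2% of all genes). The sums of the 8 lay between 106.42 and 120.58 FPKM in CR and between 122.10 and 143.63 FPKM in control. Sums of red blood cell markers (481 to 934.52 FPKM in CR and 785.41 to 1225.8 FPKM in control), endothelial markers (18.95 to 23.86 FPKM in CR and 17.35 to 19.86 FPKM in control) and choroid plexus markers (2188 to 2760.1 FPKM in CR and 1151.8 to 2774.7 FPKM in control) overlapped between the groups. Most of the choroid plexus sum came from Ttr (mean 2092 FPKM) and most of the red blood cell sum from Hba-a2 (815 FPKM). Of 6 choroid plexus markers 1, Otx2, was higher in CR (16.7%, against 17.7% of all genes). Otx2 averaged 10.3 ± 3.52 FPKM in CR and 2.87 ± 0.891 in control, without overlap (limma adjusted p = 0.00306). No tested red blood cell or endothelial marker passed the test. The part of all these markers in the results above was not tested.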

How the data were processed

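Each library's table, as deposited, held the authors' FPKM for Ensembl genes with symbol, coordinates and exon length. The submitters' processing notes name featureCounts 2.0.1, STAR 2.7.10a, cutadapt 1.16, Trimmomatic 0.36 and Trim Galore 0.4.4 with the build mRatBN7.2, without settings. Per the labels' protocols, the library kit keeps the strand. Within each table, 100% of FPKM times length were whole multiples (within 0.05) of 1 read, which gave the reads per gene and the depth. In a gene with 1 kb of exon, 3 reads came to 0.117 to 0.214 FPKM, a floor for counting error only.

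The fit used limma 3.58.1 (R 4.3.3) on log2(FPKM + 1), a scale that understates changes of low genes, over all genes whose mean reached 0.5 FPKM. Group was the only term, and the variance followed a trend with the mean. Tests were two-sided, with Benjamini-Hochberg adjustment over all genes and a threshold of 0.05. The procedure was also run on simulated data with far fewer changed genes, equal in both directions and without differences in brain regions. That run therefore does not test the calls given here. Alternatives were other pseudocounts, filters and scalings, limma settings, a replicate block, limma-voom on the recovered reads and leaving out each library.

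The members and lists were chosen with earlier results of these data known. Genes named with values were the 8 largest changes in each direction among members past the threshold, the 3 highest and 3 lowest members, a fixed set (Mrpl12, Mrpl58, Mrps12, Mrps16, Mrps18a, Mrps18b, Mrps18c, Mrps30, Mrps36) and the 3 leading genes past the threshold in each group or list. Rows spelled mrpl9, mrpl11 and mrpl24 in lower case fell outside the rule. Mrpl33, Mrpl34, Mrpl50, Mrpl53 and Mrps6 were not analysed here, since no row used carried these symbols. No gene of the mitochondrial chromosome was among the rows used.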

Additional observations from a re-analysis of the deposited data

How the results depend on the processing

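Settings changed the count of members higher in CR (18 as reported) more than their median log2 fold change (0.12). The count was 10 with median-ratio size factors. Leaving out 1 library gave 7 to 19 higher members, 2 to 3 lower members, medians of 0.079 to 0.149, and 3210 to 5042 of all genes past the threshold, against 5173 as reported. With the replicate number as a replicate block, 14 members were higher and 2 lower, and 4445 genes passed in all. Same-numbered libraries hardly deviated together (correlations 0.0245, 0.0198 and 0.0454), and those with different numbers gave -0.043 to 0.017. Values this small cannot tell whether the numbers pair the libraries. Adding the rows mrpl9, mrpl11 and mrpl24, an alternative chosen after seeing the data, left 18 higher and 3 lower of 73. The log2 fold changes of Mrps12, Mrps16 and Mrps30 lay near 0 and changed sign. Leaving out 1 library gave -0.080 to 0.043 for Mrps12, -0.029 to 0.073 for Mrps16 and -0.033 to 0.035 for Mrps30. With quantile normalization Mrps12 was at 0.0023 and Mrps30 at -0.014, and with median-ratio size factors Mrps16 was at -0.0045 and Mrps30 at -0.026. The cause was not tested. Over the genes named by the rule given above, 66 single values no longer passed, 3 newly passed, 10 changed sign and 496 kept their call. These counts leave out Mrpl2, Mrpl35, Mrpl44, Mrpl46, Mrps7, Yy1, Nrf1 and Gabpa, which were named after their values were seen. Calls of these genes changed with the setting as well, except that of Yy1. Depth limited Mrps21l, the second Mrpl42 row and Mrps17.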

Other observations

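The rows spelled in lower case, which the rule on symbols leaves out, encode further proteins of the large subunit. The row mrpl11, the counterpart of bacterial L11 at the base of the stalk, had 29.7, 28.1 and 29.5 FPKM in CR against 27.2, 26.2 and 22.1 FPKM in control. Its CR libraries were all above its control libraries, but the test was not passed (log2 fold change 0.21, limma adjusted p = 0.0790). The rows mrpl9 (30.5 ± 2.12 FPKM in CR and 32.2 ± 2.86 in control, SD, n = 3 each, limma adjusted p = 0.488) and mrpl24 (16.5 ± 0.851 FPKM in CR and 17.4 ± 0.884 in control, limma adjusted p = 0.422) had overlapping groups.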
